A study of Mus musculus with 2 samples.

Results

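S100 genes encode small proteins that bind calcium through a pair of helix-loop-helix motifs called EF-hands. This account covers 8 of them, S100a1, S100a4, S100a6, S100a8, S100a9, S100a10, S100a11 and S100a13, taken by symbol from the 17216 genes listed in the files of the series. All 8 had a mean of at least 1 FPKM (fragments scaled by transcript length and by the mapped fragments of the library), the limit used for counts of genes, which 11985 genes passed. RNA came from cells sorted from C57BL/6 mice as long-term haematopoietic stem cells, the rare marrow cells that sustain blood formation, by flow cytometry on a gate that was lineage-negative, positive for Sca-1, c-Kit and CD150, and negative for CD48, and was read on a BGISEQ-500. There was 1 library from mice labelled Ccp3-/-, which lack the cytosolic carboxypeptidase CCP3, an enzyme that removes glutamate residues from proteins, and 1 library from wild type littermates. The deleted part of the gene, the number of animals and their age and sex are not stated in the labels. With 1 library per genotype there was no replicate check and no test, so every difference compares these libraries and not the genotypes.

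The step between low FPKM values implied similar depth, about 14200000 reads in the Ccp3-/- library and 15300000 reads in the wild type library. Agbl3, which encodes CCP3, was listed at 0.66 FPKM in the Ccp3-/- library, from about 15 reads, and at 1.11 FPKM in the wild type library, from about 23 reads. The ratio of these values was 0.595, with a 95% counting interval of 0.289 to 1.19, so Agbl3 did not check the label and each direction rests on it. RNA of Cd48, the marker the gate selected against, was listed at 113.9 FPKM in the Ccp3-/- library and 136 FPKM in the wild type library. All 11 stem cell markers were listed in both libraries, and their summed level was 366 FPKM in the Ccp3-/- library and 511 FPKM in the wild type library. Cd34 alone gave 177 FPKM of that sum in the Ccp3-/- library and 248 FPKM in the wild type library. Slamf1, which encodes the CD150 the gate selected for, was listed at 3.4 FPKM in the Ccp3-/- library and 2.14 FPKM in the wild type library. Its ratio was 1.59 (1.20 to 2.11), opposite in direction to the sum. All 29 neutrophil genes examined were listed too. The values therefore describe the cells as sorted, and more cells of a type cannot be told apart from more RNA per cell.

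S100 proteins work mostly as dimers that change shape when calcium binds and then grip a partner protein. S100A8 and S100A9 join as calprotectin, which fills the cytosol of neutrophils and monocytes, withholds metal ions from microbes and, once released, can act on the receptors TLR4 and RAGE. S100A10 and S100A11 pair with annexins at membranes, S100A4 binds non-muscle myosin, S100A6 binds the CacyBP protein, S100A13 takes part in the release of FGF1, and S100A1 is best known from heart muscle. In blood formation S100a8 and S100a9 are classical genes of granulocyte and monocyte maturation.

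The S100 genes went in both directions and none of the 8 reached a difference of 1.5-fold on the log2(FPKM + 1) scale, in the values as deposited. Over all genes tested, 6.11% were at least 1.5-fold higher in the Ccp3-/- library and 6.13% at least 1.5-fold lower, together 12.2%. For at least 2-fold differences in either direction the share was 2.76%, and again 0 of the 8 passed. In all, 4 S100 genes were higher (S100a6, S100a8, S100a9 and S100a1) and 4 were lower (S100a13, S100a10, S100a11 and S100a4). In the values as deposited, a positive difference was found in 50.8% of all tested genes. With equal FPKM sums or relative to genes of similar length, S100a4 and S100a11 turned and 6 of the 8 were higher. With equal FPKM sums 1 of the 8 was at least 1.5-fold higher, beside 12.3% of all tested genes, whose median difference was then 0.18. Relative to genes of similar length 3 of the 8 were at least 1.5-fold higher, beside 4.94% of all tested genes. As deposited, the median difference over the 8 was −0.01, against 0.01 over all tested genes. The median size of the difference, without its sign, was 0.29 for the 8 and 0.23 for all tested genes. The counting interval of the ratio lay above 1 for 3 of the 8, against 31.1% of all tested genes, and below 1 for 3 of the 8, against 27.0% of all tested genes. These intervals come from estimated reads and cover counting error only.

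Levels spanned a wide range. The highest S100 value was 134 times the lowest in the Ccp3-/- library and 102 times the lowest in the wild type library. The summed level of the 8 genes was 5247 FPKM in the Ccp3-/- library and 4568 FPKM in the wild type library, which was 1.04% of all FPKM in the Ccp3-/- library and 0.791% in the wild type library. The order of levels was S100a9, S100a8, S100a11 and S100a10 in both libraries. After these came S100a6 and S100a1 in the Ccp3-/- library, whose counting intervals overlapped, and S100a4 and S100a13, whose intervals overlapped as well. In the wild type library the order after S100a10 was S100a1, S100a6, S100a13 and S100a4, with the intervals of S100a6 and S100a13 overlapping, and none of S100a1 with S100a6 or of S100a13 with S100a4.

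**Figure D1:**
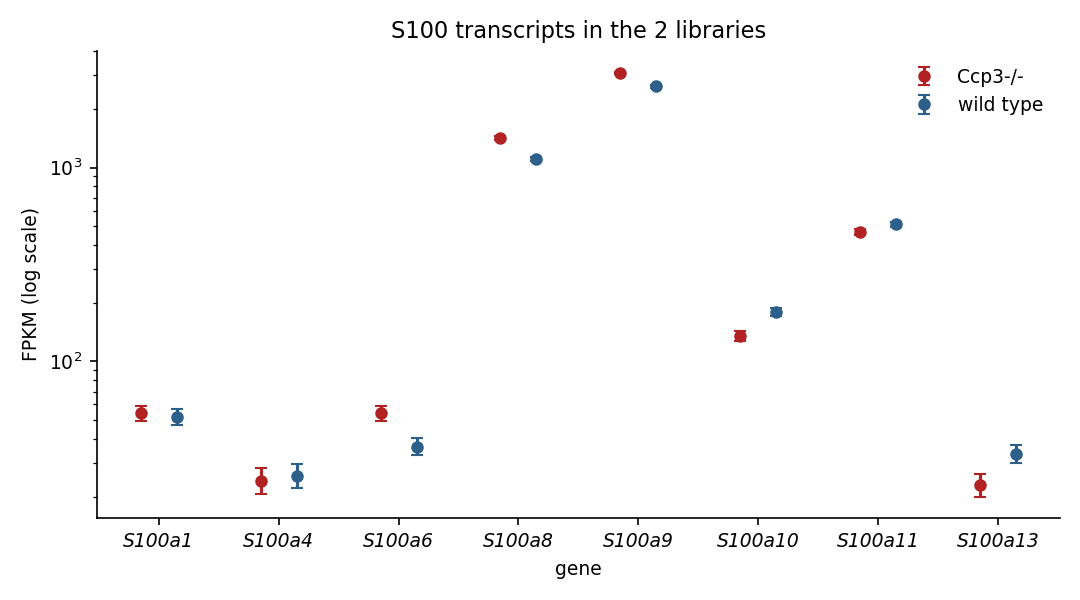
Level of each S100 gene, in FPKM on a log scale, in the Ccp3-/- library (red, left of each pair) and the wild type library (blue, right). Points are the single deposited values and bars are 95% Poisson intervals from estimated reads. S100a9 and S100a8 stand above 1000 FPKM in both libraries, and S100a4 and S100a13 stand lowest.

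S100a8 and S100a9, the genes of calprotectin, were the most abundant S100 transcripts and were both higher in the Ccp3-/- library. S100a8 (Entrez gene 20201) was listed at 1421 FPKM in the Ccp3-/- library and 1109.6 FPKM in the wild type library, from about 7155 reads in the Ccp3-/- library and 6024 reads in the wild type library. The ratio was 1.28, with a counting interval of 1.24 to 1.33. S100a9 (Entrez gene 20202) was listed at 3069 FPKM in the Ccp3-/- library and 2623 FPKM in the wild type library, from about 21765 reads in the Ccp3-/- library and 20057 reads in the wild type library, with a ratio of 1.17 (1.15 to 1.19). Both differences were larger than counting error and smaller than 1.5-fold. S100a9 ranked 9 among all genes of the Ccp3-/- library and 33 in the wild type library, while S100a8 ranked 55 in the Ccp3-/- library and 89 in the wild type library. Together these genes made up 85.6% of the summed S100 level in the Ccp3-/- library and 81.7% in the wild type library. The level of S100a9 was 2.16 times that of S100a8 in the Ccp3-/- library and 2.36 times in the wild type library. Of the 93 genes that averaged 1000 FPKM or more, a bound chosen after the values were seen, 9 were higher in the Ccp3-/- library, and S100a8 and S100a9 were among them. The others were Ctsg, Mpo, Calr, Pabpc1, Hsp90ab1, Npm1 and Hspa8, and the median difference over the 93 was −0.50. Of the 93, 66 were ribosomal protein genes, all 66 of them lower in the Ccp3-/- library. The other 27 genes had a median difference of −0.12.

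The promoters of this pair are shown because its members stand next to each other on chromosome 3 and differed in the same direction. The sequences are the 250 bases before the start annotated by RefSeq in the mouse build GRCm38.p6, which is not the mm9 build of the files, at chr3:90668821-90669070 on the plus strand for S100a8 and chr3:90695722-90695971 on the minus strand for S100a9. Capitals mark matches, on either strand, to TATAAA (the TATA box), TTGCNNAA (a C/EBP motif), GGAAGT (the core bound by ETS factors such as PU.1), CCAAT and TGANTCA (an AP-1 motif).
S100a8: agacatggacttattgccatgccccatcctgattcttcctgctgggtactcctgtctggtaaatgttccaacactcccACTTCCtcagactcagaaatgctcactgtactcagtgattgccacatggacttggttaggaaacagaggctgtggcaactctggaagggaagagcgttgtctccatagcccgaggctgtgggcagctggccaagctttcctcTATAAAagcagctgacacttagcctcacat
S100a9: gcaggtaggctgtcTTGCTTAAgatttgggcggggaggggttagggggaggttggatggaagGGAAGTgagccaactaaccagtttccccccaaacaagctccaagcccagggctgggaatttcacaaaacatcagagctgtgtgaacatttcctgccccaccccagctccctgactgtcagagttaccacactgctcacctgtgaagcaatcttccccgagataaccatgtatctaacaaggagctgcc
In S100a8 the capitals near the end are TATAAA, 30 bases before the start, and those in the first part are an ETS core on the opposite strand. In S100a9 they are a C/EBP match, 236 bases before the start, and an ETS core, 188 bases before it. A TATAAA of S100a9 began at the annotated start base itself and is therefore not in the printed run. Of 32851 RefSeq windows of 300 bases (250 before and 50 after a start), 13.6% held TATAAA, 10.8% TTGCNNAA, 23.8% GGAAGT, 37.4% CCAAT and 7.81% TGANTCA, on either strand. No matches overlapped in the windows of the S100 genes. Among the 7 S100 genes with a window in the table, TATAAA was found in S100a4, S100a8 and S100a9, and TTGCNNAA in S100a9 alone. A match is a description of letters and not a binding site.

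Factors known to act on S100a8 and S100a9 were also higher in the Ccp3-/- library. Of 9 such transcription factor genes, 9 were higher and 5 passed 1.5-fold. Their differences ran from 0.29 to 0.98, with a median of 0.61. Over all tested genes, 50.8% were higher and 6.11% were at least 1.5-fold higher. Cebpb, a C/EBP factor of myeloid and inflammatory genes, was listed at 22.0 FPKM in the Ccp3-/- library and 10.6 FPKM in the wild type library. Cebpe, which drives late granulocyte maturation, stood at 29.5 FPKM in the Ccp3-/- library and 15.3 FPKM in the wild type library. Cebpa, needed for granulocyte commitment, stood at 49.2 FPKM in the Ccp3-/- library and 27.8 FPKM in the wild type library. Hif1a was listed at 17.2 FPKM in the Ccp3-/- library and 9.09 FPKM in the wild type library. Whether these factors bear on the S100 values was not tested.

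In the values as deposited, most granule genes of neutrophils differed more between the libraries than S100a8 and S100a9 did. Of 8 azurophil granule genes, 6 passed 1.5-fold upwards in the Ccp3-/- library and 0 downwards, beside 6.11% and 6.13% of all tested genes. The list had a median difference of 0.66 and a summed level of 6517 FPKM in the Ccp3-/- library and 3998 FPKM in the wild type library. Mpo, the peroxidase of these granules, was listed at 2792.5 FPKM in the Ccp3-/- library and 1842 FPKM in the wild type library, a ratio of 1.52 (1.501 to 1.53). Of 12 genes of specific and gelatinase granules, 7 passed 1.5-fold upwards and 0 downwards, and the median difference was 0.68. Their summed level was 1488 FPKM in the Ccp3-/- library and 1253 FPKM in the wild type library. The counting interval of the ratio lay wholly above that of S100a8 for 6 of the 8 azurophil genes and 7 of the 12 specific and gelatinase genes. It lay wholly below for 2 in each list, and 3 of the 12 overlapped it. The abundant specific granule genes Ngp and Camp were among those below, with Ngp at 565 FPKM in the Ccp3-/- library and 581 FPKM in the wild type library, and Camp at 152 FPKM in the Ccp3-/- library and 207 FPKM in the wild type library. Of 9 further genes of maturing neutrophils, 8 averaged 1 FPKM or more, and 5 of them passed 1.5-fold upwards and 0 downwards. Of all 9, the interval lay wholly above that of S100a8 for 3, wholly below for 1 and overlapped it for 5. The summed level of the 9 was 218 FPKM in the Ccp3-/- library and 146 FPKM in the wild type library. These comparisons are of deposited values. Relative to genes of similar length, the difference was 0.75 for S100a8 and 0.59 for S100a9. Mpo, at 0.65, was then below S100a8, while Elane at 0.93 and Ctsg at 1.23 were above it. How far a different share of neutrophil lineage cells enters the S100a8 and S100a9 values was not tested.

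**Figure D2:**
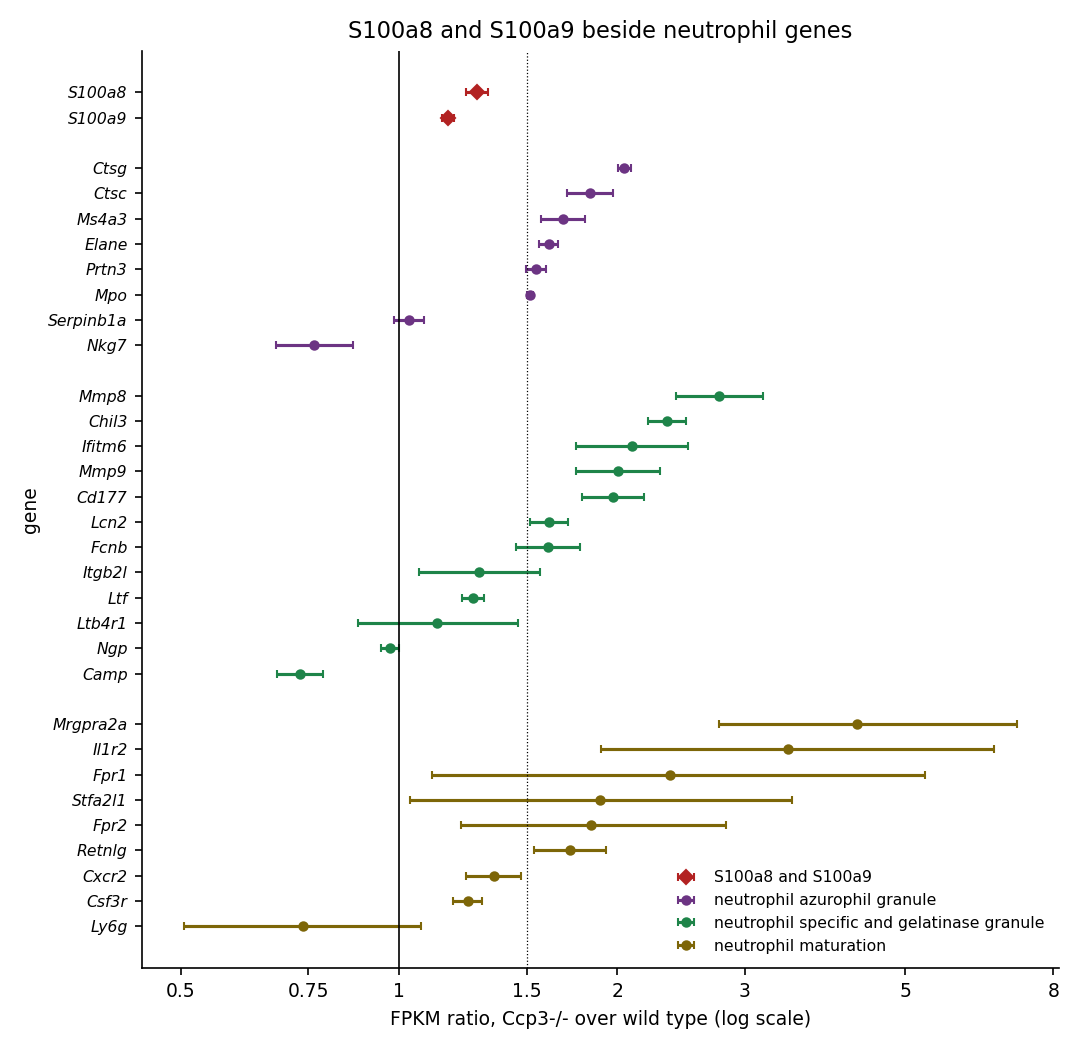
Ratio of FPKM, Ccp3-/- over wild type, on a log scale for S100a8 and S100a9 (red) and for 29 neutrophil genes in 3 lists. Points are single ratios, bars are 95% counting intervals, and the dotted line marks 1.5-fold. S100a8 at 1.28 and S100a9 at 1.17 lie left of most granule genes, such as Ctsg at 2.05, and right of Camp at 0.731. The ratios are of FPKM as deposited and are not taken relative to genes of similar length.

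The annexin-binding members S100a10 and S100a11 were lower in the Ccp3-/- library in the values as deposited, and their annexins were higher. The direction of S100a11 depends on the scaling, with a difference of −0.13 as deposited, 0.064 with equal FPKM sums and 0.26 relative to genes of similar length. S100a10 stayed lower in these settings, at −0.41 as deposited, −0.22 with equal FPKM sums and −0.10 relative to genes of similar length. S100a10 (Entrez gene 20194) encodes a protein that stays in its active shape without calcium and binds annexin A2 and plasminogen. S100a10 was listed at 135 FPKM in the Ccp3-/- library and 179 FPKM in the wild type library. The ratio was 0.753 (0.699 to 0.812), from about 1177 reads in the Ccp3-/- library and 1684 reads in the wild type library. Anxa2, its annexin, stood at 105 FPKM in the Ccp3-/- library and 82.5 FPKM in the wild type library, a ratio of 1.27 (1.19 to 1.36). The level of S100a10 was thus 1.29 times that of Anxa2 in the Ccp3-/- library and 2.18 times in the wild type library. S100a11 (Entrez gene 20195), which binds annexin A1, was listed at 466 FPKM in the Ccp3-/- library and 509 FPKM in the wild type library, a ratio of 0.916 (0.873 to 0.962). Anxa1 stood at 168 FPKM in the Ccp3-/- library and 131 FPKM in the wild type library, a ratio of 1.28 (1.21 to 1.34). S100a11 was at 2.78 times the level of Anxa1 in the Ccp3-/- library and 3.88 times in the wild type library. Of the 9 annexin genes that averaged 1 FPKM or more, 4 were higher and 5 lower. Anxa3 was at least 1.5-fold higher and none was at least 1.5-fold lower, and the median difference was −0.002. Ahnak, a large scaffold protein bound by the complex of S100A10 with annexin A2, was listed at 7.18 FPKM in the Ccp3-/- library and 4.11 FPKM in the wild type library. Plgrkt, a plasminogen receptor gene, was lower, at 22.8 FPKM in the Ccp3-/- library and 40.1 FPKM in the wild type library. These transcripts also differ in length, since S100a10 and S100a11 have 650 and 504 bases and Anxa2 and Anxa1 have 1374 and 1395 bases, and the difference between the libraries moved with length across all genes.

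S100a6 had the largest difference of the family and S100a4 one of the smallest. S100a6 (Entrez gene 20200), which binds the CacyBP protein and is expressed in many dividing cells, was listed at 54.1 FPKM in the Ccp3-/- library and 36.4 FPKM in the wild type library, from about 524 reads in the Ccp3-/- library and 380 reads in the wild type library. The ratio was 1.49 (1.3 to 1.70), or 1.47-fold on the log2(FPKM + 1) scale, just under 1.5-fold. Of all tested genes, 6.61% had a larger positive difference. Cacybp was listed at 125 FPKM in the Ccp3-/- library and 108 FPKM in the wild type library, a ratio of 1.16 (1.11 to 1.21). S100a4 (Entrez gene 20198), which binds the heavy chain of non-muscle myosin IIA and acts on cell movement, was listed at 24.2 FPKM in the Ccp3-/- library and 25.8 FPKM in the wild type library. The ratio was 0.940 (0.758 to 1.17), so a difference was not detectable at this depth. Myh9, which encodes that myosin chain, stood at 184 FPKM in the Ccp3-/- library and 132 FPKM in the wild type library, a ratio of 1.39 (1.37 to 1.43). Of the 8 genes of intracellular partners that averaged 1 FPKM or more, 6 were higher and 2 lower, with a median difference of 0.34. Ahnak was at least 1.5-fold higher and Plgrkt at least 1.5-fold lower. Relative to genes of similar length, Myh9 stood at 0.20, below S100a4 at 0.31. On that scale Ahnak stood at 0.36, Cacybp at 0.26, the partner gene Ncl at 0.07 and Plgrkt at −0.50. The 250 bases before the start of S100a6, at chr3:90612644-90612893 on the plus strand, are shown because it differed most of the 8.
S100a6: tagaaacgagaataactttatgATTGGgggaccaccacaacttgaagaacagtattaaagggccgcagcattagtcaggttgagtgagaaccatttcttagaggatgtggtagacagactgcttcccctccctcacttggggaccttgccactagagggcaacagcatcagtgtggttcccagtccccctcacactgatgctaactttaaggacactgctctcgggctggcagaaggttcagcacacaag
The capitals are CCAAT on the opposite strand, 228 bases before the start, and none of the other 4 motifs was found in its window of 300 bases.

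**Figure D3:**
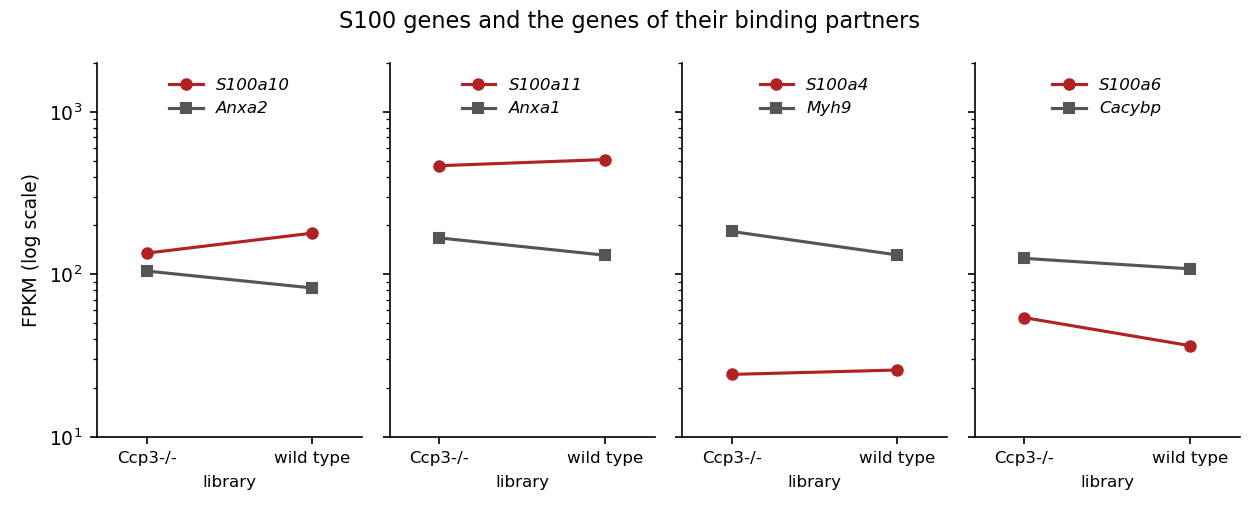
Levels in FPKM, on a log scale, of 4 S100 genes (red circles) and the gene of a binding partner (grey squares) in the Ccp3-/- library (left) and the wild type library (right); each point is 1 library. The lines of S100a10 and Anxa2 slope in opposite directions, as do those of S100a11 and Anxa1 in the values as deposited (S100a11 turns with equal FPKM sums), while S100a6 and Cacybp slope the same way.

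S100a1 and S100a13 start next to each other on opposite strands and differed from one another between the libraries. S100a1 (Entrez gene 20193), a regulator of calcium handling in heart muscle, was listed at 54.0 FPKM in the Ccp3-/- library and 51.7 FPKM in the wild type library, from about 443 reads in the Ccp3-/- library and 458 reads in the wild type library. The ratio was 1.04 (0.913 to 1.19), and a difference was not detectable at this depth. S100a13 (Entrez gene 20196), which takes part in the export of FGF1 and interleukin 1 alpha without a signal peptide, was listed at 23.0 FPKM in the Ccp3-/- library and 33.3 FPKM in the wild type library. The ratio was 0.691 (0.583 to 0.819), from about 227 reads in the Ccp3-/- library and 354 reads in the wild type library, and it was the lowest of the 8. The intervals of both ratios did not overlap. S100a13 stood at 0.425 times the level of S100a1 in the Ccp3-/- library and 0.643 times in the wild type library. Its known cargo genes were near the lower end of the files, with Fgf1 at 0.13 FPKM in the Ccp3-/- library and 0.15 FPKM in the wild type library, and Il1a at 0.18 FPKM in the Ccp3-/- library and 0.17 FPKM in the wild type library. The annotated starts used for the promoter windows of S100a1 and S100a13 lie 105 bases apart, and the gene spans overlap by 98 bases in the RefSeq annotation, which holds longer transcripts. Use of strand in the counting is not given in the sources used here, and reads from that overlap cannot be told apart. The stretch before S100a13, at chr3:90514185-90514434 on the plus strand, is shown because it also covers the start of S100a1.
S100a13: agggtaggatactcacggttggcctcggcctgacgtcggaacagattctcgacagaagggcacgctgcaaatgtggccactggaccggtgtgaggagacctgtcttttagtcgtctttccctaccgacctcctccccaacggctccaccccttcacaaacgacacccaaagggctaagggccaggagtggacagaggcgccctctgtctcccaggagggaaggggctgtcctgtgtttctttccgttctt
No motif is in capitals in this run, and GGAAGT began at base 28, counting the start base as the first. The windows of S100a1 and S100a13 had a GC content of 61.0% and 59.3%, against a median of 52.7% over all windows, and those of S100a8 and S100a9 had 50% and 51.3%.

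Other S100 genes were at or near single reads. S100a5 was listed at 0.71 FPKM in the Ccp3-/- library and 0.66 FPKM in the wild type library, from about 4 reads each. S100a16 was listed at 0.07 FPKM in the Ccp3-/- library, from about 1 read, and 0.12 FPKM in the wild type library, from about 2 reads. S100a3, S100a7a and S100b were not listed in the Ccp3-/- library, and stood at 0.10, 0.09 and 0.08 FPKM in the wild type library, from 1 or 2 reads each. No fold is given for these, since 3 reads would be 0.313 FPKM for S100a3, 0.300 FPKM for S100a7a and 0.129 FPKM for S100b in the Ccp3-/- library. S100a7l2, S100a14, S100g and S100z were in neither file. Of the fused-type relatives in the same region of chromosome 3, Tchh was listed, at 0.19 FPKM in the Ccp3-/- library and 0.08 FPKM in the wild type library, and Crnn, Flg, Flg2, Hrnr, Rptn and Tchhl1 were in neither file. S100pbp, which encodes a protein that binds S100P in human cells and is not an S100 gene, stood at 9.19 FPKM in the Ccp3-/- library and 7.36 FPKM in the wild type library, a ratio of 1.25 (1.01 to 1.54).

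The genes beside the S100 block on chromosome 3 had low or equal levels in both libraries. Chtop, the protein-coding gene before S100a1 in the annotation, was listed at 66.1 FPKM in both libraries, a ratio of 1.0 (0.947 to 1.06). Pglyrp4, which follows S100a9, was not listed in the Ccp3-/- library and stood at 0.03 FPKM in the wild type library. Tchhl1 and Tdpoz2, on either side of the pair S100a11 and S100a10, were in neither file. Within the block of 12 S100 genes, those at single reads, such as S100a7a, lay between abundant ones such as S100a6 and S100a8.

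Genes through which released S100 proteins are known to act were mostly higher in the Ccp3-/- library in the values as deposited, by small amounts. Of 10 receptor genes that averaged 1 FPKM or more, 7 were higher and 3 lower, with a median difference of 0.30, and on the log2(FPKM + 1) scale Cd14 passed 1.5-fold. Tlr4 was listed at 2.33 FPKM in the Ccp3-/- library and 1.41 FPKM in the wild type library. Its ratio of FPKM was 1.65 (1.35 to 2.01), while its difference of log2(FPKM + 1), 0.47, was below 1.5-fold. Ager, which encodes RAGE, was listed at 3.19 FPKM in the Ccp3-/- library and 3.36 FPKM in the wild type library. Bsg, which encodes the S100A9 receptor basigin, was far more abundant, at 220 FPKM in the Ccp3-/- library and 211 FPKM in the wild type library, a ratio of 1.04 (0.996 to 1.08). Of 14 signalling genes after TLR4 and RAGE, 12 were higher, with a median of 0.24. Il1b was at least 1.5-fold higher, at 3.43 FPKM in the Ccp3-/- library and 1.35 FPKM in the wild type library. A positive difference was found in 50.8% of all tested genes. Relative to genes of similar length, Tlr4 moved to 0.16. The signalling genes Map3k7 and Diaph1 moved from 0.36 and 0.27 to 0.15 and 0.07. Cd14, Bsg and Il1b moved the other way, to 0.74, 0.22 and 1.07. Among 6 genes of the NADPH oxidase, to which S100A8 and S100A9 deliver arachidonic acid, 3 were higher and 3 lower. Cybb, its catalytic subunit, was at least 1.5-fold higher, at 41.7 FPKM in the Ccp3-/- library and 19.8 FPKM in the wild type library, and Rac2 was at 96.8 FPKM in the Ccp3-/- library and 130 FPKM in the wild type library.

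Calcium-binding genes outside the family differed over a like range. Of 26 other EF-hand genes, 14 were higher and 12 lower in the Ccp3-/- library, with differences of −0.38 to 0.85 and a median of 0.05, against −0.52 to 0.56 and −0.01 for the 8 S100 genes. Nucb2 and Efhd2 were at least 1.5-fold higher and none was at least 1.5-fold lower. Nucb2, a calcium-binding protein of the Golgi, was listed at 41.6 FPKM in the Ccp3-/- library and 22.7 FPKM in the wild type library. Calm2, a calmodulin gene, was listed at 424 FPKM in the Ccp3-/- library and 479 FPKM in the wild type library.

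Markers of other blood cells differed between the libraries beside the S100 values. Of 13 monocyte markers, 5 were at least 1.5-fold higher in the Ccp3-/- library and 0 lower, and the summed level was 1017 FPKM in the Ccp3-/- library and 887 FPKM in the wild type library. Of 11 B cell markers 9, of 13 dendritic cell markers 9, of 10 T and NK cell markers 5 and of 10 erythroid markers 6 were at least 1.5-fold lower, and none of these was at least 1.5-fold higher. The summed B cell level was 70.7 FPKM in the Ccp3-/- library and 154 FPKM in the wild type library. The erythroid sum was 455 FPKM in the Ccp3-/- library and 1503 FPKM in the wild type library. The globin genes Hba-a1 and Hbb-bs gave 155 and 107 FPKM of it in the Ccp3-/- library and 764 and 457 FPKM in the wild type library. Of the 10 erythroid markers 4 were higher in the Ccp3-/- library, among them Car1, at 124 FPKM against 109 FPKM in the wild type library. The dendritic cell sum was 354 FPKM in the Ccp3-/- library and 587 FPKM in the wild type library. Flt3 gave the largest part of it, 82.5 FPKM in the Ccp3-/- library and 155 FPKM in the wild type library. Of the 13 dendritic cell markers 3 were higher in the Ccp3-/- library. The sum of all 12 T and NK cell markers was 77.3 FPKM in the Ccp3-/- library and 113 FPKM in the wild type library. Nkg7, also counted as an azurophil granule gene, gave 41.24 FPKM and 53.95 FPKM of these T and NK cell sums. Irf8 was counted as both a monocyte and a dendritic cell marker. Of 9 mast cell, basophil and eosinophil markers 1, of 11 stem cell markers 3 and of 3 endothelial and stromal markers that averaged 1 FPKM or more 2 were at least 1.5-fold lower. None of the markers was at 0 in either library. Their part in the S100 differences was not tested.

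S100 transcripts are short, and short transcripts were lower in the Ccp3-/- library as a class. The 8 had listed lengths of 392 to 732 bases, against a median of 2685 bases over all tested genes. The 649 tested genes no longer than S100a13, the longest of the 8, had a median difference of −0.34, or −0.30 without the 42 ribosomal protein genes among them. When each difference was taken relative to the median of its 200 neighbours in length, 6 of the 8 S100 genes were above 0, and S100a10 at −0.10 and S100a13 at −0.23 were below it. On that scale S100a6 stood at 0.86, S100a8 at 0.75 and S100a9 at 0.59, which made these 3 at least 1.5-fold higher, S100a9 barely, beside 4.94% of all tested genes. With ribosomal protein genes left out of the neighbours, an alternative chosen after seeing the data, S100a9 stood at 0.53 and S100a6 and S100a8 remained past 1.5-fold, at 0.83 and 0.72. The signs of S100a4 and S100a11 turned, to 0.31 and 0.26, with all neighbours. Scaling both libraries to the same FPKM sum moved the median of all genes to 0.18. On that scale S100a6 was at least 1.5-fold higher, with a difference of 0.75, and S100a8 and S100a9 stood at 0.55 and 0.42. That is 1 of the 8, and 12.3% of all tested genes were at least 1.5-fold higher with the same scaling, a share near that of the S100 genes. Whether transcript length enters the S100 values was not tested.

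**Figure D4:**
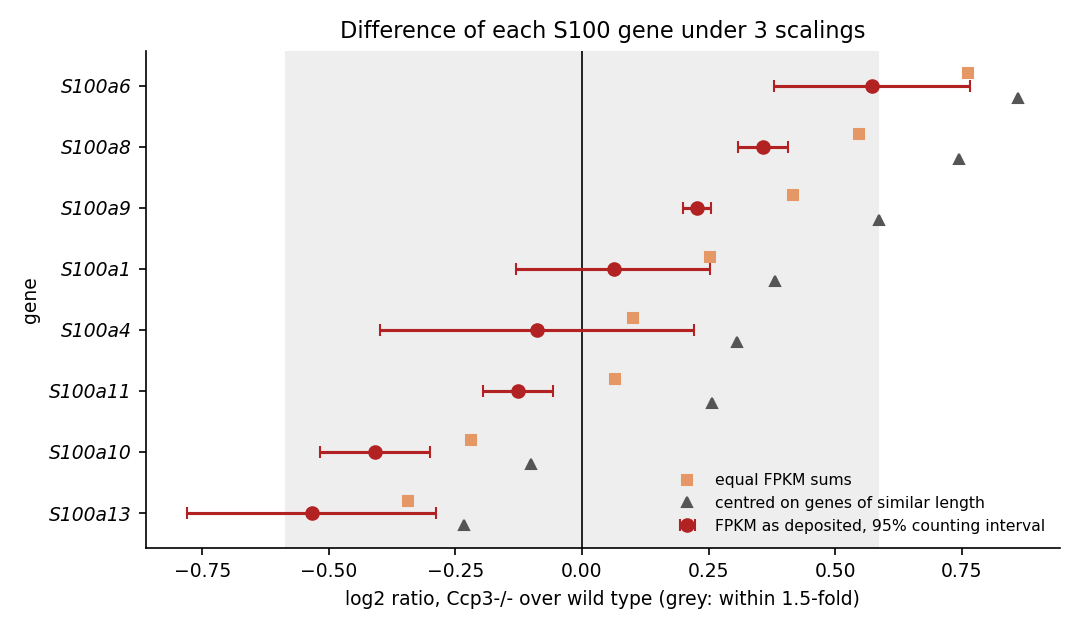
Difference of each S100 gene, Ccp3-/- over wild type, on a log2 scale. Red points are ratios of deposited FPKM with 95% counting intervals, orange squares are ratios after scaling to equal FPKM sums, and grey triangles are differences of log2(FPKM + 1) less the median of genes of similar length; the grey band marks 1.5-fold. All red points lie inside the band, while S100a6 lies outside it with both other scalings. S100a8 lies outside it with length centring and S100a9 lies on its edge.

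**Figure D5:**
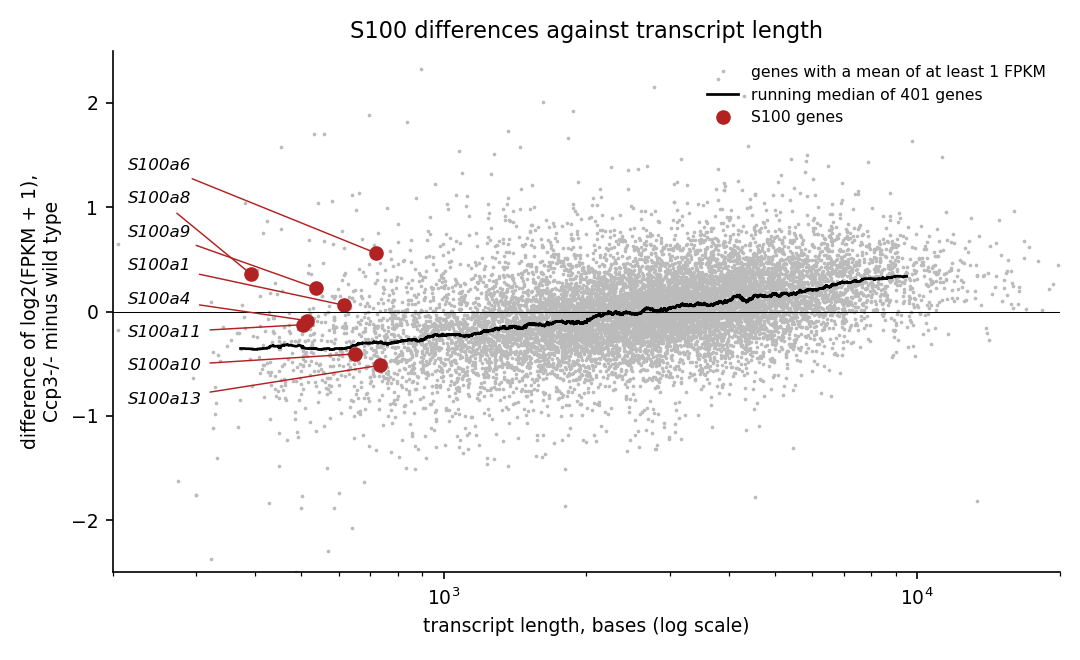
Difference of log2(FPKM + 1), Ccp3-/- minus wild type, against listed transcript length on a log scale, for genes that averaged 1 FPKM or more (grey), with the running median of 401 genes (black) and the 8 S100 genes (red). In all, 186 genes outside the plotted range are not drawn. S100a6, S100a8, S100a9 and S100a1 lie above the line of 0, and S100a10 and S100a13 lie under the running median.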

How the data were processed

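Tables of FPKM per gene were used from 2 libraries, 1 from cells of Ccp3-/- mice and 1 from wild type littermates. FPKM values and transcript lengths were made by the authors and are given per Entrez gene, per the file headers. The submitters' processing notes name HISAT, HISAT2 and RSEM and the mouse build mm9, with no versions or settings. Genes missing from 1 file count as 0 there. Symbols and promoter sequences came from RefSeq tables of GRCm38.p6, in which 17169 of 17216 identifiers matched and 7 of the 8 S100 genes had a promoter window. S100a10 had none.

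Differences are of log2(FPKM + 1), Ccp3-/- minus wild type, a scale on which the change of low genes is understated. Ratios are of FPKM without the pseudocount. No test between genotypes was possible. Genes averaging 1 FPKM or more were counted as higher or lower past 1.5-fold or 2-fold. Reads were estimated from low values of transcripts of 300 to 1200 bases with 1 isoform, as FPKM times length less 38 bases, which fell on multiples of 70.3 in the Ccp3-/- library and 65.2 in the wild type library. A whole read was met, with a tolerance of 0.15, by 89.5% of 446 such values in the Ccp3-/- library and 87.9% of 488 in the wild type library (30% by chance for a fixed step), and step and offset were chosen on these same values. Exact conditional 95% intervals of ratios and Poisson intervals of levels rest on the rounded estimates and cover counting error only. The procedure was run on simulated whole reads converted with the same formula, so that run cannot check how it handles fractional reads. The 8 genes, the lists of partners, receptors, factors and markers and the rules were chosen with earlier results of these data known. Members were all named, with up to 4 genes of each partner list by size of difference and up to 3 of each marker list by level as candidates for naming, of which those a result turns on are printed. Outside that rule are Fgf1, Il1a, Tlr4, Ager, Bsg, Cd14, Il1b, Anxa2, Cacybp, Calm2, Tchh, Cd48, Slamf1 and the genes above 1000 FPKM. These were named after their values were seen. Computation used scipy 1.17.1, pandas 2.3.3 and numpy 2.4.6 in Python 3.11.15, and figures were drawn with matplotlib 3.10.9.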

Additional observations from a re-analysis of the deposited data

How the results depend on the processing

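Pseudocounts of 0.1 and 5, equal upper quartiles, no filter on low values and a mean of at least 5 FPKM left 0 of the 8 S100 genes past 1.5-fold and, where the sign of each gene was recomputed (pseudocounts and upper quartiles), 4 of 8 higher. The number past 1.5-fold became 1 with equal FPKM sums, 3 with length centring and 2 with length centring without ribosomal protein genes, the last chosen after seeing the data. Of all tested genes, 12.3%, 4.94% and 4.86% were at least 1.5-fold higher with these settings, so the first count is near the background. The median over the 8 turned to 0.17, 0.34 and 0.31 with these settings, against 0.18, −0.0002 and −0.002 over all tested genes. With equal FPKM sums the median over the 8 was thus near that of all tested genes. S100a4 turned to 0.10, 0.31 and 0.26 and S100a11 to 0.064, 0.26 and 0.23, and 6 of 8 were then higher. The cause was not tested. Of 48 values of single genes under alternatives, 26 stayed within the counting interval, 16 moved outside it and 6 turned sign. With 1 library per genotype no library could be left out, and S100a1 and S100a4 had intervals that hold a ratio of 1. No paired analysis was possible because each genotype had 1 library.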
